A study of Saccharomyces cerevisiae with 28 samples.

Results

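The genes described are 51 of the 6692 yeast open reading frames (ORFs) in the deposited count table: 50 enzyme genes of amino acid synthesis other than lysine, and GCN4, the activator that many of them share. They were taken by gene name and fall into arginine (5 genes), histidine (6), branched-chain (10), aromatic (11), asparagine and threonine (7), serine (4), glutamate and glutamine (4) and proline (3) synthesis, plus GCN4. All 51 passed the filter that left 6592 ORFs for testing, a mean of at least 1 RPKM (reads scaled to the length of the ORF and to the total counted reads of the library). Their median count was 855 reads in a library and their lowest count was 3.

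Poly(A)+ RNA was sequenced from 28 libraries of Saccharomyces cerevisiae BY4741, a haploid MATa laboratory strain that lacks LEU2, MET17 and URA3 and part of HIS3. The 6 genotypes were: wild type (WT), H3H113N, dCtr1, H3H113N-dCtr1, dCcs1 and H3H113N-dCcs1. H3H113N has an asparagine in place of a histidine in histone H3, dCtr1 lacks the copper importer gene CTR1, and dCcs1 lacks CCS1, which encodes the copper chaperone of the superoxide dismutase Sod1. The series addresses the H3-H4 tetramer as a copper reductase, and the design sets H3H113N against its parent in 6 settings: in YPD (rich glucose medium), in YPEG (rich ethanol and glycerol medium), in SC (synthetic complete medium), with dCtr1 in YPD, with dCcs1 in SC, and with dCcs1 in SC-lys (SC without lysine). There were 2 libraries in 10 of the groups, 3 in WT-SC and in H3H113N-SC, and 1 of each dCcs1 strain in SC-lys with 75 µM CuSO4. YPD and YPEG cultures were grown for 3 to 4 doublings and SC cultures for 5, whereas SC-lys cultures were incubated for 24 h. Growth was labelled exponential except in the SC-lys libraries and in H3H113N-dCcs1 with copper, where it was very slow. The labels do not say that same-group libraries came from separate cultures, so the p-values measure only the spread between these libraries.

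Yeast makes its amino acids from a few intermediates of central metabolism, and many of the enzymes are under general amino acid control. Shortage of any of several amino acids increases translation of the GCN4 mRNA, and the Gcn4 protein binds promoters with the core sequence TGACTC and activates genes of many pathways at once, so the mRNA level of GCN4 does not by itself report the amount of the protein. Single pathways have regulators of their own: Leu3 acts on branched-chain genes in response to a leucine precursor, and arginine represses the arginine genes. SER3 is a separate case, since in serine-rich medium transcription of the noncoding RNA SRG1 across its promoter keeps it silent, a repression that depends on nucleosomes over that promoter.

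The windows from 250 bases before to 50 bases after the start codon's first base are shown for 6 genes that the results turn on, in RefSeq sequence of assembly R64, the build named in the submitters' processing notes. SER3 is shown because it rose most with H3H113N, ARG1, ARG4, LEU4 and HIS4 because they were among the largest rises without lysine, and LEU1 because it had the largest average fall with H3H113N. Capitals mark the start codon in SER3, TGACTC in ARG4, LEU4 and HIS4, and the core of the Leu3 site, CCGG and CCGG with any NN between them, in LEU1. ARG1 held no copy of either motif and has no capitals.
SER3 chrV:322436-322735 (+ strand): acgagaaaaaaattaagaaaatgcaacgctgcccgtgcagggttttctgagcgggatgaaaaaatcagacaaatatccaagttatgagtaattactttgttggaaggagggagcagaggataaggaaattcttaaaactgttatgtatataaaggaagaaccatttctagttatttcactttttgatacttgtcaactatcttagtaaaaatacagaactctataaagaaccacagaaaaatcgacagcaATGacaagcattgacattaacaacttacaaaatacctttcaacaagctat
ARG1 chrXV:218961-219260 (+ strand): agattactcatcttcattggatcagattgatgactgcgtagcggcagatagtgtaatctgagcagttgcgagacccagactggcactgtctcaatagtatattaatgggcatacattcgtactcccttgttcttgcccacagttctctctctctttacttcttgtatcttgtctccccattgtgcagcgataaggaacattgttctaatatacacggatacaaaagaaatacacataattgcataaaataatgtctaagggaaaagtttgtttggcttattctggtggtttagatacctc
ARG4 chrVIII:141353-141652 (− strand): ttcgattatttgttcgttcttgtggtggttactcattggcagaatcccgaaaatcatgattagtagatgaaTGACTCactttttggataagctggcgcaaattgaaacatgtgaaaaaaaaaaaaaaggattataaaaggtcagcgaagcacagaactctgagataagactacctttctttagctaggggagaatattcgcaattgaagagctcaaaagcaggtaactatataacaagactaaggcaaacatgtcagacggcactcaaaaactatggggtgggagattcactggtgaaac
LEU4 chrXIV:426705-427004 (− strand): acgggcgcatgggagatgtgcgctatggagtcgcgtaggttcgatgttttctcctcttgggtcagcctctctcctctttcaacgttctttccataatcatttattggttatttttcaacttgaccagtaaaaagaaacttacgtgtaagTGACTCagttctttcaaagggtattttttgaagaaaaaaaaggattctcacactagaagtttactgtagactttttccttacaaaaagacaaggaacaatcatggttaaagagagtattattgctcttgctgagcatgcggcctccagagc
HIS4 chrIII:68284-68583 (− strand): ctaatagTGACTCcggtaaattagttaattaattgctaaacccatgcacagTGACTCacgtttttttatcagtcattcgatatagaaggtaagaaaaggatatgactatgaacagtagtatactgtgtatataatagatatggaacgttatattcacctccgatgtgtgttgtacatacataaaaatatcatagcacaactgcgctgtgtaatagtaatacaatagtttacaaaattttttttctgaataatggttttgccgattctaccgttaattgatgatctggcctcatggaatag
LEU1 chrVII:478603-478902 (− strand): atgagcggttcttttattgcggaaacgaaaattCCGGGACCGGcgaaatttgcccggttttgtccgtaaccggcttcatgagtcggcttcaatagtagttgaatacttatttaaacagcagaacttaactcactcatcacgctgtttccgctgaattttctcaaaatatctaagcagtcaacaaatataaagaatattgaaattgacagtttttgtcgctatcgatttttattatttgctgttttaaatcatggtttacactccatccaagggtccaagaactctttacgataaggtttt

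TGACTC was searched on both strands of these windows, and 27 of the 51 members (52.9%) held it, against 479 of 6001 genes (7.98%). The longer TGACTCA, which overlaps it, was in 19 members (37.3%) and in 164 of all genes (2.73%). HIS4 had copies at −243 and −199 relative to the start codon, ARG4 at −179 and LEU4 at −101. The Leu3 core, searched the same way, was in 2 members (3.92%), LEU1 at −217 and BAT1 at −147, and in 8 of all genes (0.133%). SRG1 begins 474 bases before SER3 on the same strand of chromosome V (322212 to 322762) and overlaps the first 77 of the 1410 bases of SER3. SRG1 is not a row of the ORF table, so its level was not analysed here.

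Total counts ranged from 1168159 to 6738018 reads a library. CTR1 and CCS1 had at most 1 read in each library labelled as lacking them, and LEU2, MET17 and URA3 had 0 in all 28. The counts do not record bases and cannot show the H3H113N allele. Marker genes of MATa cells summed to 208 to 2322 RPKM and those of MATalpha cells to 23.9 to 111 RPKM. YPD and SC-lys libraries were made with a KAPA kit and YPEG and SC libraries with NeoPrep, so kit and medium cannot be told apart in comparisons between YPD or SC-lys and SC. In H3H113N libraries, ORFs of whole chromosomes shifted together against the mean of all libraries with wild-type H3 in the same medium. That reference pools WT with dCtr1 in YPD and WT with dCcs1 in SC. Chromosome V shifted by 0.50, 0.52, 0.43 and 0.71 (log2) in YPD, YPEG, SC and with dCtr1, and chromosome II by 0.09 to 0.71 in the 6 settings. Chromosome III shifted by 1.09 with dCtr1, and chromosome I by 0.76 and 0.82 with dCcs1. In H3H113N-dCcs1, chromosome IX was shifted by 0.22 to 0.34 and chromosome XI by 0.22 to 0.37 in the SC and SC-lys libraries. The SC value of chromosome V is a mean of 0.12 in H3H113N replicate 1 and 0.58 and 0.60 in the others. Chromosome V carries 7 members (HIS1, ILV1, TRP2, HOM3, SER3, PRO3 and GCN4), chromosome III carries HIS4, ILV6 and THR4, chromosome II HIS7 and ARO4, chromosome IX HIS5, HIS6 and SER33, chromosome XI TRP3, and chromosome I GDH3. For these genes the average over the 6 settings is therefore also given with each chromosome's median set to 0 ("centred"). Values of single settings are centred only where stated.

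SER3, which encodes a phosphoglycerate dehydrogenase that starts serine synthesis, had the highest log2 fold change of the 51 genes in each of the 6 comparisons of H3H113N with its parent. In YPD, it had 47.9 and 35.3 RPKM in WT and 215 and 494 in H3H113N. In YPEG, it had 16.8 and 14.3 RPKM in WT and 207 and 187 in H3H113N. With dCtr1 in YPD, the values were 49.0 and 45.3 RPKM without and 623 and 575 with H3H113N. In these settings every H3H113N library lay far above the parent libraries, and the groups did not overlap. Overlap, here and below, only describes RPKM values, which are not centred by chromosome. The share of all ORFs without overlap was not counted, and groups of 2 libraries can often separate without a real difference. The log2 fold change was 2.89 (standard error, SE, 0.68, edgeR adjusted p 0.0440) in YPD, 3.64 (SE 0.72, edgeR adjusted p 0.0199) in YPEG and 3.47 (SE 0.70, edgeR adjusted p 0.0146) with dCtr1. At an adjusted p under 0.05, SER3 was the 1 member called in each of these comparisons, in which 1.24%, 1.03% and 2.18% of all tested ORFs were called, and 1.05%, 0.925% and 1.81% were called higher. With each chromosome centred, SER3 was 2.40 in YPD (edgeR adjusted p 0.116) and 2.77 with dCtr1 (edgeR adjusted p 0.0934), neither of them called, and 3.12 in YPEG (edgeR adjusted p 0.0478), still called. Leaving out any one of the 4 libraries of a comparison ended its call, with values of 2.17 to 3.37 in YPD, 3.51 to 3.76 in YPEG and 3.40 to 3.51 with dCtr1. The summed level of 10 stress and slow-growth genes was 305.5 and 103 RPKM in WT and 678 and 756 in H3H113N in YPD, 8283 and 6533 against 12143 and 7014 in YPEG, and 465 and 1139 against 1042 and 889 with dCtr1, and their part in these values was not tested. Strand was not used in counting, and reads of SRG1 in its overlap with SER3 cannot be told apart from those of SER3.

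In the settings with SC, SER3 was also higher with H3H113N but was not called in the main edgeR fit. In SC, it had 45.9, 33.5 and 226 RPKM in WT replicates 1 to 3 and 284, 308 and 384 in H3H113N. With dCcs1 in SC, it had 33.2 and 84.8 RPKM without and 237 and 201 with H3H113N. In SC-lys with dCcs1, the values were 168 and 347 RPKM without and 964 and 961 with H3H113N. The groups did not overlap in any of the 3 settings, but WT replicate 3 in SC stood far above the other WT libraries. That library also had a summed level of 10 stress and slow-growth genes of 4906 RPKM, against 1042 and 517 in the other WT-SC libraries and 1950 to 4738 in H3H113N in SC, and the part of this state in the SER3 value was not tested. The log2 fold change of SER3 was 1.46 (SE 0.53, edgeR adjusted p 0.187) in SC, 1.72 (SE 0.66, edgeR adjusted p 0.236) with dCcs1 in SC and 1.59 (SE 0.65, edgeR adjusted p 0.130) in SC-lys. Without WT-SC replicate 3, SER3 was called in SC at 2.80 (edgeR adjusted p 0.00429), and it was not called without any 1 of the other 5 libraries (1.04 to 1.56). Same-numbered WT and H3H113N libraries in SC deviated together, and with the replicate number as a block SER3 was called in SC at 1.96 (edgeR adjusted p 0.0419). The block also gave a call in SC-lys at 1.69 (edgeR adjusted p 0.0450), but not with dCcs1 in SC (1.73, edgeR adjusted p 0.0935). Limma called SER3 in SC at 2.18 (limma adjusted p 0.0227). Centred, it was at 1.04 in SC (edgeR adjusted p 0.473) and 1.56 in SC-lys (edgeR adjusted p 0.174), not called. With copper in SC-lys, SER3 had 236 RPKM in dCcs1 and 855 in H3H113N-dCcs1, 1 library each. Averaged over the 6 settings, SER3 was 2.46 higher (SE 0.27, edgeR adjusted p 3.76e-06), called without any 1 of the 26 libraries and, centred, at 2.10 (edgeR adjusted p 2.78e-05).

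The other 3 serine genes did not rise with SER3. SER33, the paralog of SER3 with 82.4% DNA identity over the ORF and the same enzyme activity, stayed between 49.6 and 114 RPKM in all 28 libraries, with 93.0 and 90.5 RPKM in WT and 62.0 and 77.7 in H3H113N in YPD. Averaged over the settings, SER33 fell by 0.32 (SE 0.09, edgeR adjusted p 0.0147), SER1, the phosphoserine aminotransferase, fell by 0.53 (SE 0.09, edgeR adjusted p 0.000305), and SER2, the phosphatase of the last step, fell by 0.59 (SE 0.16, edgeR adjusted p 0.00816). In YPEG SER33 had 73.1 and 55.8 RPKM in WT and 49.6 and 54.6 in H3H113N, with dCtr1 80.9 and 90.5 against 64.9 and 73.1, and in SC 64.6, 51.5 and 86.5 against 57.8, 59.5 and 63.0. With dCcs1 it had 68.7 and 55.9 against 75.9 and 74.7 in SC and 89.0 and 92.9 against 91.6 and 114 in SC-lys, and with copper 68.4 against 97.1. In RPKM, SER3 was above SER33 in all 14 H3H113N libraries. Without H3H113N, SER33 was above SER3 in each library in YPD and YPEG, dCtr1 included, and in WT-SC replicates 1 and 2 and dCcs1-SC replicate 1, and SER3 was the higher in WT-SC replicate 3, dCcs1-SC replicate 2 and the dCcs1 libraries in SC-lys, with and without copper. SER33 lies on chromosome IX, and centred its average was −0.39 (edgeR adjusted p 0.00390). In 50-base windows, 99.2% of SER3 and of SER33 are unique in the genome, so reads of the paralogs could be told apart.

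**Figure D1:**
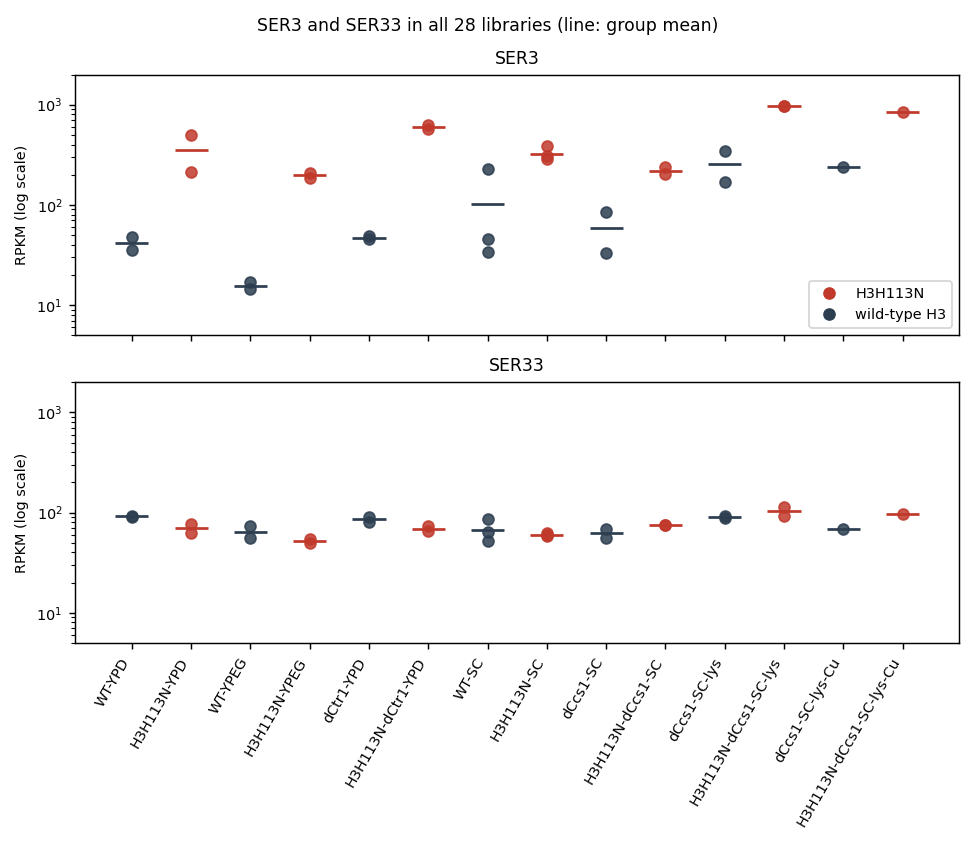
RPKM of SER3 and SER33 (log axis) in each of the 28 libraries, by group. Points are single libraries and lines group means, and SER3 lies above the parent in each pair of groups, from 14.3 RPKM in WT in YPEG to 964 in H3H113N-dCcs1 in SC-lys, while SER33 stays between 49.6 and 114.

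Outside SER3, the average over the 6 settings was mostly lower with H3H113N. Of the 51 members, 2 were called higher and 20 lower, 43.1% against the 33.8% of all tested ORFs called in this comparison, and 42 had a negative value. The share called lower was 39.2% of the members and 15.2% of all ORFs, and the share called higher was 3.92% and 18.5%. The median log2 fold change was −0.25 over the members and 0.00 over all ORFs. With library totals as the only scaling the median of all ORFs moved to 0.20, the members' median to −0.06, 4 members were called higher and 12 lower, HIS6, HOM6, LEU9, PRO1, SER2, SER33, TRP4 and TRP5 were no longer called, and the share of all called ORFs that was higher went from 54.9% to 82.7%. With each chromosome centred, 1 member was called higher and 27 lower, 19 of these 28 were called before, and GDH3, TRP5 and HOM6 were lost. Among those newly called were TRP2 (0.07 before and −0.30 centred), PRO3 (−0.03 and −0.40), ILV6 (−0.18 and −0.41) and THR4 (−0.17 and −0.41). ILV1 (−0.31) and HOM3 (−0.55) were not called when centred. Of 10 stress and slow-growth genes, 4 were called higher in the average, with a median of 0.85, and their part in the members' values was not tested.

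Branched-chain synthesis held the largest fall, that of LEU1, with 5 of its 10 genes called lower and a median of −0.57. LEU1, the isopropylmalate isomerase, fell by 0.90 (SE 0.19, edgeR adjusted p 0.00164), ILV2, the catalytic subunit of acetolactate synthase, fell by 0.82 (SE 0.20, edgeR adjusted p 0.00470), and ILV3, the dihydroxyacid dehydratase, fell by 0.78 (SE 0.19, edgeR adjusted p 0.00390). BAT1, the mitochondrial branched-chain aminotransferase, fell by 0.72 (SE 0.15, edgeR adjusted p 0.00161), and LEU9, the minor isopropylmalate synthase, fell by 0.71 (SE 0.21, edgeR adjusted p 0.0153). All 5 were lower in each of the 6 settings and kept their call without any 1 library. Their paralogs did not pass: BAT2, the cytosolic aminotransferase, was at −0.21 (SE 0.22, edgeR adjusted p 0.493), and LEU4, the main isopropylmalate synthase, at −0.20 (SE 0.11, edgeR adjusted p 0.169). The difference between paralogs was not tested.

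BAT1 shows the pattern by library. In YPD it had 948 and 814 RPKM in WT and 613 and 596 in H3H113N, in YPEG 313 and 293 against 193 and 197, and with dCtr1 636 and 803 against 488 and 466. In SC it had 742, 496 and 302 RPKM in WT and 627, 436 and 472 in H3H113N, with dCcs1 541 and 521 against 376 and 224, and in SC-lys 1396 and 1012 against 964 and 651. The groups overlapped in SC and in none of the other settings. BAT2 overlapped between the genotypes in all settings but YPEG: it had 155 and 106 RPKM in WT and 142 and 124 in H3H113N in YPD, and 34.6, 44.2 and 157 against 55.2, 61.3 and 163 in SC. With dCtr1 it had 213 and 123 without and 129 and 170 with H3H113N, with dCcs1 in SC 51.5 and 65.0 against 58.0 and 52.6, and in SC-lys 223 and 369 against 237 and 200. In YPEG, both H3H113N libraries lay above both WT libraries for BAT2, at 199.6 and 186 against 159 and 172.

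Among the 11 aromatic genes, 5 were called lower in the average. ARO2, the chorismate synthase, fell by 0.66 (SE 0.12, edgeR adjusted p 0.000564), ARO1, a protein with several activities of the shikimate pathway, fell by 0.60 (SE 0.08, edgeR adjusted p 3.79e-05), ARO8, an aromatic aminotransferase, fell by 0.52, TRP5, the tryptophan synthase, fell by 0.47, and TRP4 fell by 0.46. ARO3 and ARO4, the paralogs for the first step, were at −0.25 (edgeR adjusted p 0.0697) and −0.29 (edgeR adjusted p 0.0580). ARO4 lies on chromosome II, and centred it was called at −0.73 (edgeR adjusted p 0.000141). ARO8 had 338 and 414 RPKM in WT and 244 and 338 in H3H113N in YPD, 239 and 256 against 228 and 223 in YPEG, and 234, 267 and 269 against 241, 233 and 263 in SC. With dCtr1 ARO8 had 399 and 355 against 335 and 269, with dCcs1 278 and 305 against 217 and 199, and in SC-lys 650 and 621 against 412 and 425. The genotypes overlapped for ARO8 in YPD, where 338 RPKM were reached in both, and in SC, and in none of the other 4 settings.

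In asparagine and threonine synthesis, 4 of 7 genes were called lower in the average: HOM2, ASN2, THR1 and HOM6. Of these, HOM6 was at −0.29 (edgeR adjusted p 0.0387), a call lost in most of the 26 fits without 1 library. HOM2, the aspartate semialdehyde dehydrogenase shared by threonine and methionine synthesis, fell by 0.81 (SE 0.11, edgeR adjusted p 3.87e-05). In SC it had 329, 399 and 416 RPKM in WT and 260, 199 and 195 in H3H113N, and in YPD 480 and 562 against 280 and 344. In YPEG it had 314 and 357 against 250 and 215, with dCtr1 494 and 448 against 338 and 280, and with dCcs1 333 and 367 against 258 and 196. In SC-lys it had 1185 and 894 against 907 and 670, the 1 setting of the 6 in which the HOM2 groups overlapped.

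HOM2 was also the 1 member called in SC alone, at −1.01 (SE 0.23, edgeR adjusted p 0.0379), where 1.59% of all ORFs were called, 1.2% higher and 0.394% lower. That call was kept without H3H113N replicate 1 (−1.25), was lost without any of the other 5 libraries (−1.09 to −0.88) and was lost with chromosomes centred (−0.94, edgeR adjusted p 0.0736). With the replicate block HOM2 was at −1.03 in SC (edgeR adjusted p 0.0217). Of the asparagine synthetases, ASN2 fell by 0.64 in the average (SE 0.12, edgeR adjusted p 0.000439), and its paralog ASN1, 81.0% identical, was at −0.35 (SE 0.17, edgeR adjusted p 0.116). ASN2 had 516 and 652 RPKM in WT and 303 and 502 in H3H113N in YPD, and ASN1 had 533 and 602 against 488 and 572, so only ASN2 was separated by genotype there.

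Of the remaining pathways, proline had 2 of 3 genes called lower in the average, PRO2 (−0.52) and PRO1 (−0.44), the enzymes that turn glutamate into glutamate semialdehyde. PRO2 did not overlap between the genotypes in any of the 6 settings, with 195 to 245 RPKM in WT and 143 to 192 in H3H113N in YPD. How many of all ORFs would do so was not counted. Histidine had 1 of 6 called lower, HIS6 (−0.28, edgeR adjusted p 0.0466), a call lost in most of the 26 fits without 1 library. With chromosomes centred 5 of 6 were called lower: HIS1 at −0.54, HIS4 at −0.59 (−0.36 before centring), HIS5 at −0.26, HIS6 at −0.36 and HIS7 at −0.67. TRP3, of tryptophan synthesis, was at −0.17, and centred at −0.27 (edgeR adjusted p 0.0667), not called. Arginine had 0 of 5 called, with values from −0.22 (ARG4) to 0.30 (CPA1). GDH3, an NADP-dependent glutamate dehydrogenase known for its part in growth without glucose, was the 1 glutamate gene called, higher by 0.60 (SE 0.16, edgeR adjusted p 0.00661), and it was higher in each of the 6 settings. It lies on chromosome I, and centred it was at 0.30 (edgeR adjusted p 0.130). GDH3 had 87.1 and 58.9 RPKM in WT and 157 and 101 in H3H113N in YPEG, and 11.6 to 15.6 against 18.2 to 23.9 in YPD.

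**Figure D2:**
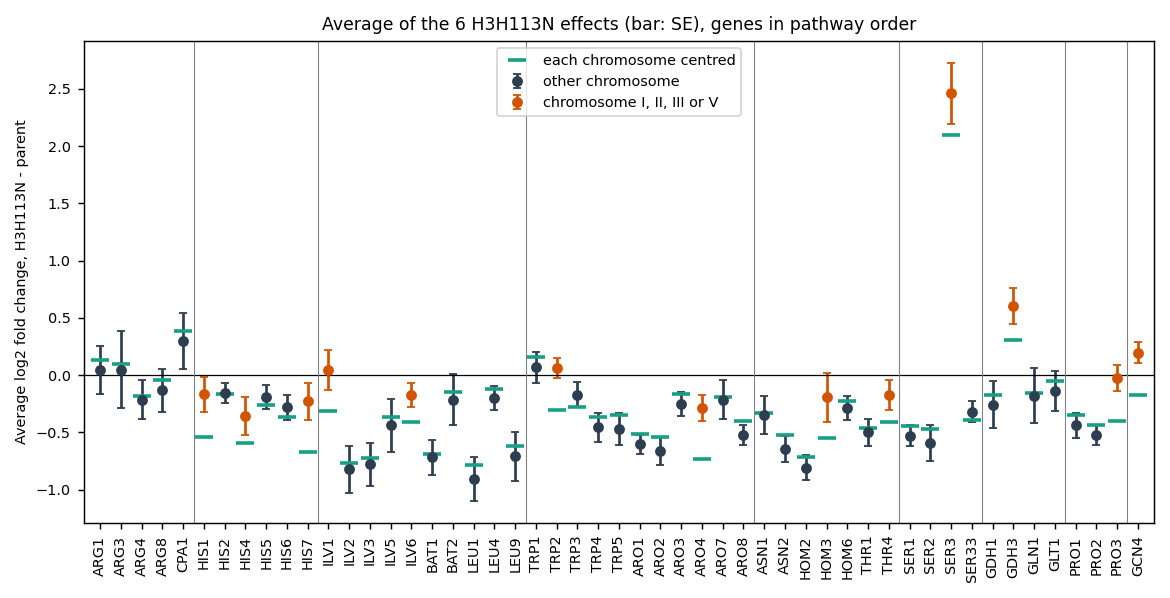
Average log2 fold change of H3H113N against its parent over 6 settings for each of the 51 genes, by pathway, with SE as bars and the chromosome-centred value beside it. SER3 stands apart at 2.46, GDH3 follows at 0.60, and 42 of the 51 values are below 0.

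**Figure D3:**
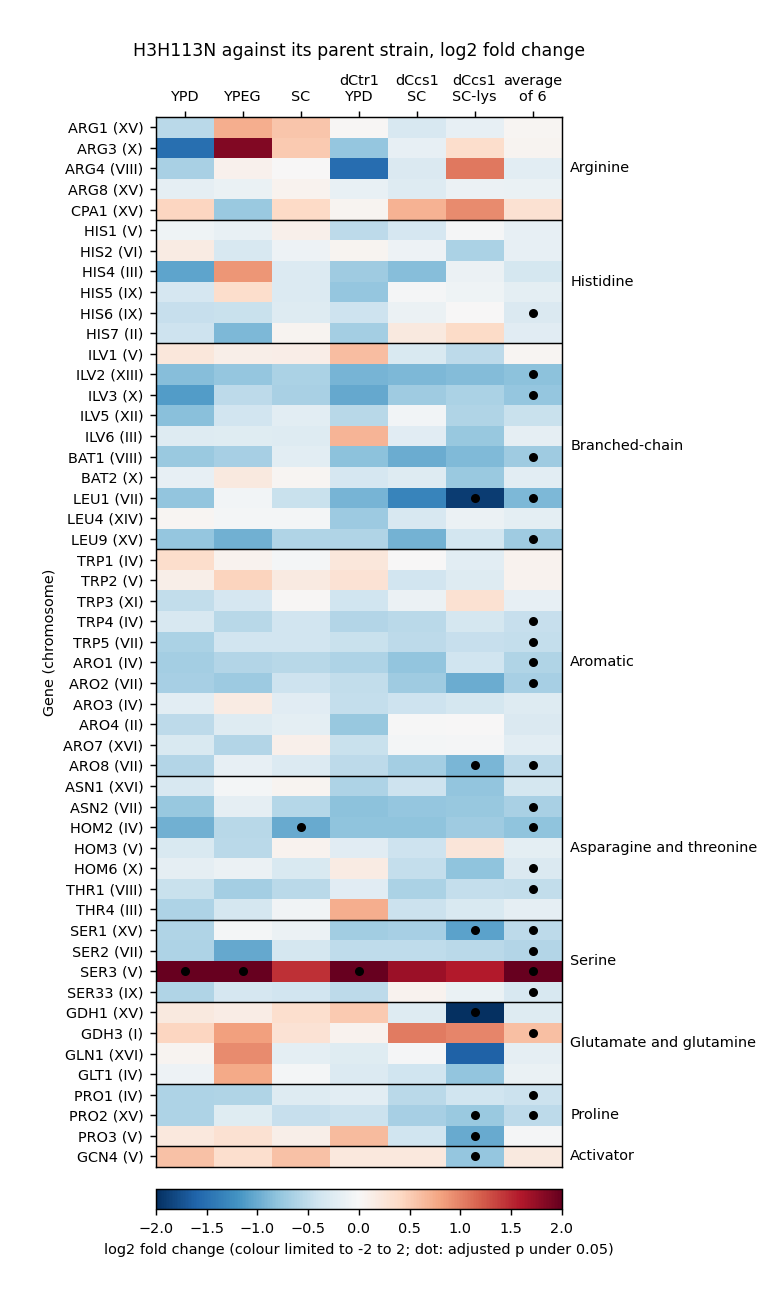
Log2 fold change of H3H113N against its parent for the 51 genes (rows, by pathway) in the 6 settings and their average (columns), with a dot where the adjusted p was under 0.05 and colours limited to −2 to 2. SER3 is the row that is high throughout, and the calls of single settings lie in SC-lys apart from SER3 in YPD, YPEG and with dCtr1 and HOM2 in SC.

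In the settings one by one, the median over the members was −0.44 in YPD, −0.18 in YPEG, −0.19 in SC, −0.45 with dCtr1, −0.38 with dCcs1 in SC and −0.40 in SC-lys, beside medians of all ORFs between −0.05 and 0.01. With library totals only, the members' median in SC turned to 0.02 beside 0.18 for all ORFs, and the other 5 stayed negative. The same scaling moved the share of called ORFs that was higher from 75.2% to 94.4% in SC, from 82.6% to 93.2% with dCtr1, from 81.7% to 94.3% with dCcs1 in SC and from 48.1% to 78.2% in SC-lys. With dCcs1 in SC, 0 members were called by edgeR where 1.24% of all ORFs were, and DESeq2 called 2, ARO1 and ARO8. An unadjusted edgeR p under 0.05 was reached there by 12 members and by 888 of the 6592 tested ORFs.

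H3H113N-dCcs1 in SC-lys had 7 members called lower and 0 higher against dCcs1, where 10.7% of all ORFs were called, 5.16% higher and 5.57% lower. GDH1, the main NADP-dependent glutamate dehydrogenase, had 483 and 1467 RPKM in dCcs1 and 202 and 225 in H3H113N-dCcs1. LEU1 had 645 and 1475 RPKM against 319 and 388. Neither gene overlapped between the genotypes, but in both the dCcs1 libraries differed widely, replicate 2 being the high one. GDH1 fell by 2.50 (SE 0.54, edgeR adjusted p 0.00707) and LEU1 fell by 1.90 (SE 0.50, edgeR adjusted p 0.0206). Without dCcs1 replicate 2 they were at −1.48 and −1.17 and were not called, without either H3H113N-dCcs1 library they were not called, and without dCcs1 replicate 1 they were called at −3.09 and −2.37. Smaller falls were SER1 at −1.07 (SE 0.23, edgeR adjusted p 0.00708), PRO3 at −1.01, ARO8 at −0.91 (SE 0.23, edgeR adjusted p 0.0148), GCN4 at −0.77 and PRO2 at −0.74. The summed stress genes were 9587 and 5786 RPKM in dCcs1 and 11937 and 11360 in H3H113N-dCcs1, and their part in these falls was not tested. The count was 3 without dCcs1 replicate 1, 2 without dCcs1 replicate 2 and 0 without either H3H113N-dCcs1 library.

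GCN4 was higher with H3H113N in 5 settings and lower in SC-lys. In YPD it had 1019 and 1006 RPKM in WT and 2018 and 1484 in H3H113N, in YPEG 2290 and 2060 against 2931 and 2651, and in SC 1103, 961 and 1159 against 1440, 2081 and 2199. With dCtr1 it had 1053 and 851 against 1177 and 1349, with dCcs1 in SC 1020 and 802 against 1110 and 1347, and in SC-lys 1536 and 1484 against 1178 and 1011. The genotypes did not overlap in any of the 6, and the share of all ORFs of which this holds was not counted. The log2 fold changes were 0.58, 0.34, 0.59, 0.22 and 0.21 in YPD, YPEG, SC, with dCtr1 and with dCcs1 in SC, with edgeR adjusted p of 0.293, 0.502, 0.125, 0.848 and 0.781 in that order. In SC-lys it was −0.77 (SE 0.23, edgeR adjusted p 0.0387), the only call among the 6 in this fit. In SC it was also called with library totals only (0.83, edgeR adjusted p 0.0288), by limma (0.81) and by DESeq2 (0.58), all without centring. The SC-lys call was lost with library totals (−0.46, edgeR adjusted p 0.211), by limma (−0.47) and with only the groups compared (−0.77). Limma was run on RPKM values, which are likewise scaled by library totals alone. The average was 0.19 (SE 0.09, edgeR adjusted p 0.110), and with library totals it was called at 0.39 (edgeR adjusted p 0.00321) and by limma also at 0.39, as was the average without SC-lys (0.39, edgeR adjusted p 0.00806). GCN4 lies on chromosome V, and centred it was at −0.18 in YPEG, −0.48 with dCtr1 and −0.18 in the average, on the other side of 0. Centring also left it at 0.07 in YPD (edgeR adjusted p 0.964) and 0.15 in SC (edgeR adjusted p 0.811). With dCcs1, the centred value was 0.19 in SC and −0.80 in SC-lys (edgeR adjusted p 0.0370), the latter still called. The SC-lys call was lost without any 1 of the 4 libraries, with values of −0.91 to −0.65.

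The remaining paralog pairs differed in how they moved. ARO3 had 251 and 248 RPKM in WT and 273 and 226 in H3H113N in YPD, 186 and 264 against 245 and 274 in YPEG, and 259, 227 and 232 against 243, 217 and 250 in SC. ARO3 had 355 and 286 against 316 and 213 with dCtr1, 285 and 308 against 284 and 221 with dCcs1 in SC, and 694 and 515 against 596 and 579 in SC-lys, so the genotypes overlapped in all settings but dCcs1 in SC. ARO4 had 478 and 516 RPKM in WT and 382 and 419 in H3H113N in YPD, 545 and 490 against 414 and 289.5 with dCtr1, and 751 and 710 against 1003 and 826 in SC-lys, without overlap. In RPKM, ARO4 was thus lower with H3H113N in YPD and with dCtr1 and higher in SC-lys, where its chromosome II was shifted by 0.71. In the fit its log2 fold change was at most 0.02 in any of the 6 settings, and centred it was negative in all 6. In YPEG, SC and with dCcs1 in SC, ARO4 had 285 and 390, 273, 270 and 217, and 283.5 and 277.5 RPKM without and 298.5 and 278, 311, 207 and 245, and 352 and 283 with H3H113N, and overlapped. With copper, dCcs1 and H3H113N-dCcs1 had 258 and 455 RPKM of ARO3 and 469 and 829 of ARO4.

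ASN1 had 358 and 261 RPKM in WT and 319 and 291 in H3H113N in YPEG, 133, 125 and 183 against 147, 142 and 244.5 in SC, and 896 and 497 against 578 and 448 with dCtr1. With dCcs1 in SC it had 194 and 160 against 204 and 94.9, and in SC-lys 870 and 426 against 565 and 364, so ASN1 overlapped between the genotypes in every setting. ASN2 had 345 and 367 against 297 and 345 in YPEG, 407, 448 and 349 against 361, 292 and 281 in SC, 650 and 547 against 403 and 369 with dCtr1, 509 and 480 against 391.5 and 267 with dCcs1 in SC, and 971 and 1013 against 651 and 807 in SC-lys. For ASN2 the genotypes overlapped in YPEG and SC only.

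LEU4 had 202 and 246 RPKM in WT and 218 and 317 in H3H113N in YPD, 458 and 579 against 494 and 539 in YPEG, 366 and 257 against 210 and 219 with dCtr1, and 203.5, 222 and 311 against 256, 257 and 318 in SC. LEU9 had 178.5 and 214 against 122.5 and 146 in YPD, 61.5 and 92.0 against 30.5 and 50.9 in YPEG, 157 and 145 against 124 and 104.5 with dCtr1, and 181, 176 and 48.7 against 118, 122 and 70.1 in SC. With the values in dCcs1 strains given further on, LEU9 was lower with H3H113N without overlap in YPD, YPEG, with dCtr1 and with dCcs1 in SC, and LEU4 with dCtr1 and with dCcs1 in SC. GDH1 had 463 and 592 against 725 and 680 in YPD, 456 and 361 against 432 and 488 in YPEG, 412 and 363 against 744 and 539 with dCtr1, 262, 302 and 678 against 389, 407 and 1024 in SC, and 312 and 256 against 316 and 227 with dCcs1 in SC. Every H3H113N library was above the parent in YPD and with dCtr1, the opposite order to SC-lys. GDH3 had 19.6 and 15.8 against 24.4 and 18.2 with dCtr1, 20.9, 28.7 and 51.4 against 28.2, 44.9 and 71.2 in SC, 24.4 and 27.7 against 65.1 and 56.8 with dCcs1 in SC, and 27.8 and 41.2 against 93.5 and 74.3 in SC-lys. GDH3 did not overlap in 4 settings: YPD, YPEG, and dCcs1 in SC and in SC-lys. Chromosome I was shifted by 0.01, 0.14, 0.76 and 0.82 in these, in that order.

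HIS4 had 166 and 187 RPKM in WT and 96.2 and 100.1 in H3H113N in YPD, and 21.0 and 17.4 against 35.4 and 36.2 in YPEG. It had 290 and 221 against 246 and 111 with dCtr1 and 108, 79.0 and 215 against 116, 108 and 161 in SC. Every H3H113N library was thus below WT in YPD and above WT in YPEG, and the genotypes overlapped in the other settings. HIS4 lies on chromosome III, which was shifted by 1.09 with dCtr1, and these RPKM values are not centred.

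The difference of the H3H113N effect between settings was tested directly in 6 interactions, and 0 of the 51 members were called in any of them. Of all ORFs, 0.0455% were called for SC-lys against SC with dCcs1, 0.0152% for YPEG against SC, and 0.0% for with against without dCtr1, with against without dCcs1, YPEG against YPD and SC against YPD. For SC-lys against SC, 3 members had an unadjusted p under 0.05: GDH1 at −2.25 (SE 0.74, edgeR adjusted p 0.737), GCN4 at −0.98 (SE 0.33, edgeR adjusted p 0.737) and ARG4 at 1.34 (SE 0.61). The counts at an unadjusted p under 0.05 were 2 for dCtr1, 0 for dCcs1, 1 for YPEG against SC (SER3, 2.18, SE 0.85), 2 for YPEG against YPD and 0 for SC against YPD. The matching counts of all ORFs are not given here, so counts at this limit are not read as a result about the members. The larger SER3 change in YPEG than in SC was not called as a difference (edgeR adjusted p 0.931). GCN4 was at −0.36 in the dCtr1 interaction (edgeR adjusted p 0.9998).

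Deletion of CTR1 in YPD or of CCS1 in SC left 0 of the 51 members called by edgeR, where 0.0455% (0.0303% higher) and 0.0152% of all ORFs were called. In each comparison 1 member had an unadjusted p under 0.05, and the matching counts of all ORFs are not given here. The medians over the members were −0.03 and 0.04. The 5 arginine genes were at 0.03 to 0.99 with dCtr1, with a median of 0.69, and ARG1, the highest, had 160 and 64.4 RPKM in dCtr1 and 29.7 and 72.4 in WT, which overlapped. GCN4 was at −0.15 with dCtr1 and −0.21 with dCcs1 (edgeR adjusted p 1.0 in both). These comparisons share the WT libraries with those of H3H113N in YPD and SC.

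Some of the members rose in each dCcs1 strain in SC-lys relative to SC. In dCcs1, 13 of 51 members (25.5%) were called higher and 0 lower, where 6.04% of all ORFs were called and 2.91% were called higher. In H3H113N-dCcs1, 18 were called higher and 1 lower, where 13.6% of all ORFs were called, 5.63% higher and 7.98% lower. The median over the members was 0.81 in dCcs1 and 0.83 in H3H113N-dCcs1, and −0.01 to 0.01 over all ORFs, and 7 and 14 of the members had a negative value. The strains shared 11 of the genes called higher, 84.6% of those called in dCcs1 and 61.1% of those in H3H113N-dCcs1: ARG1, ARG4, ARO3, ARO4, ARO8, ASN1, BAT2, HIS5, HOM2, LEU4 and TRP5. Growth state, starting density and library kit changed together with the medium and cannot be told apart from lack of lysine. The summed stress genes were 462 and 3083 RPKM in dCcs1 in SC and 9587 and 5786 in SC-lys, and 2693 and 3201 against 11937 and 11360 in H3H113N-dCcs1. Their part in these rises was not tested.

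LEU4, the main isopropylmalate synthase, rose in both strains. It had 186 and 187 RPKM in SC and 1071 and 942 in SC-lys in dCcs1, and 185 and 158 against 1239 and 1068 in H3H113N-dCcs1. All SC-lys libraries lay far above all SC libraries. The log2 fold change was 2.44 in dCcs1 (SE 0.29, edgeR adjusted p 9.97e-05) and in H3H113N-dCcs1 2.64 (SE 0.29, edgeR adjusted p 2.19e-05), and both calls held without any 1 of the 4 libraries. LEU9 did not follow: it had 158 and 108 RPKM in SC and 170 and 85.8 in SC-lys in dCcs1, and 108 and 46.6 against 138 and 108 in H3H113N-dCcs1, and the media overlapped in both strains (−0.06, edgeR adjusted p 0.969, and 0.52, edgeR adjusted p 0.576). Of the other branched-chain genes, BAT2 rose by 2.36 (SE 0.58, edgeR adjusted p 0.0222) in dCcs1 and by 1.87 (SE 0.57, edgeR adjusted p 0.0367) in H3H113N-dCcs1. LEU1 rose in dCcs1 by 1.96 (SE 0.50, edgeR adjusted p 0.0271). In dCcs1 both calls were kept only without dCcs1-SC-lys replicate 1, and LEU1 was at 1.24 without replicate 2. In H3H113N-dCcs1 the call of BAT2 was lost without any 1 library.

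ARG1 had the largest rise of the members in dCcs1, and ARG4 and ARG1 had the largest in H3H113N-dCcs1. ARG1, the argininosuccinate synthetase, had 49.5 and 61.1 RPKM in SC and 601 and 177 in SC-lys in dCcs1, and 54.2 and 47.1 against 460 and 400 in H3H113N-dCcs1. ARG4, the argininosuccinate lyase, had 117 and 144 RPKM against 590 and 221 in dCcs1, and 118 and 130 against 1083 and 1013 in H3H113N-dCcs1. SC-lys libraries lay above SC libraries in both strains, and the dCcs1 replicates in SC-lys differed widely, replicate 1 being the high one. ARG1 rose by 2.82 (SE 0.56, edgeR adjusted p 0.00719) in dCcs1 and by 2.98 (SE 0.56, edgeR adjusted p 0.00220) in H3H113N-dCcs1, and ARG4 by 1.65 (SE 0.44, edgeR adjusted p 0.0342) in the former and by 2.99 in the latter (SE 0.46, edgeR adjusted p 0.000510). In dCcs1 both calls were kept only without SC-lys replicate 2, and without SC-lys replicate 1 ARG1 was at 1.69 and ARG4 at 0.77, whereas in H3H113N-dCcs1 both kept their calls without any 1 library. ARG3, the ornithine carbamoyltransferase, rose by 2.60 (SE 0.83, edgeR adjusted p 0.0434) in H3H113N-dCcs1, a call lost without any 1 library.

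Other rises touched each of the larger pathways. HIS4, an enzyme of several steps of histidine synthesis, had 70.3 and 138 RPKM in SC and 275 and 216 in SC-lys in dCcs1, and 71.8 and 59.5 against 303 and 256 in H3H113N-dCcs1. It rose by 1.98 (SE 0.44, edgeR adjusted p 0.00582) in H3H113N-dCcs1, and was not called without SC replicate 2 (1.74). ASN1 rose by 1.87 in dCcs1 (SE 0.43, edgeR adjusted p 0.0162), where it had 194 and 160 RPKM in SC and 870 and 426 in SC-lys. It rose by 1.496 in H3H113N-dCcs1, and in dCcs1 it kept its call only without SC-lys replicate 2, and was at 1.27 without SC-lys replicate 1. HOM2 rose by 1.58 and 1.68, ARO4 by 1.39 and 1.42, and ARO8 by 1.13 and 0.90 in dCcs1 and H3H113N-dCcs1. SER3 rose by 2.03 (SE 0.66, edgeR adjusted p 0.0483) in H3H113N-dCcs1 and was at 2.15 (SE 0.67, edgeR adjusted p 0.0645) in dCcs1, and the call was lost without any 1 library. PRO3, the last enzyme of proline synthesis, was the 1 member that fell, by 1.28 (SE 0.29, edgeR adjusted p 0.00688) in H3H113N-dCcs1, and kept its call in 1 of the 4 fits without 1 library (−1.41 to −1.14). GCN4 itself was at 0.73 in dCcs1 (edgeR adjusted p 0.0690) and −0.25 in H3H113N-dCcs1 (edgeR adjusted p 0.519).

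The numbers of calls depended on single libraries. In dCcs1 they were 1 without dCcs1-SC replicate 1, 3 without replicate 2, 6 without dCcs1-SC-lys replicate 1 and 9 without replicate 2. In H3H113N-dCcs1 they were 15 and 6 without SC replicate 1 or 2 and 7 and 8 without SC-lys replicate 1 or 2. By promoter, 6 of the 27 members with TGACTC and 7 of the 24 without it were called higher in dCcs1 (medians 0.64 and 1.02), and 10 and 8 in H3H113N-dCcs1 (medians 0.83 and 0.71). In the H3H113N average, 12 of the 27 and 8 of the 24 were called lower (medians −0.32 and −0.21).

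Addition of copper to SC-lys was measured in 1 library a strain, so it is described without a test against the mean of the 2 SC-lys libraries of the same strain. The log2 differences are of CPM, reads per total counted reads of a library after TMM scaling, averaged on the log scale, so they differ from ratios of the RPKM values beside them. In dCcs1, 12 members were more than 2-fold lower with copper and 0 higher, where 10.5% of all ORFs were past 2-fold and 5.72% lower. The median over the members was −0.62 (log2), beside 0.01 over all ORFs. The largest were HOM3, the aspartate kinase, at −1.91 (38.6 RPKM with copper against a mean of 201), CPA1, a subunit of the arginine-specific carbamoyl phosphate synthetase, at −1.75 (162 against 715), ARG1 at −1.64 (86.3 against 389), HIS1 at −1.46, ASN1 at −1.36 and ILV5 at −1.34. ARG4, ILV2, HIS7, TRP5, ARG8 and LEU4 followed, from −1.29 to −1.03, and GCN4 was at −0.003, with 1249 RPKM against a mean of 1510. The count was 4 without dCcs1-SC-lys replicate 1 and 22 without replicate 2.

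In H3H113N-dCcs1, 1 member was past 2-fold with copper, where 2.7% of all ORFs were and 2.05% were higher: GDH1, at 1.37, with 472 RPKM against a mean of 214. Leaving out either SC-lys library gave 2. The members' median was −0.02, ARG1 had 275 RPKM against 430, HOM3 147 against 294 and GCN4 1180 against 1094 (0.33). The dCcs1 library with copper grew exponentially per its label and had a summed stress level of 5554 RPKM, whereas the H3H113N-dCcs1 library with copper grew very slowly and had 9926, and the part of growth in the copper values was not tested.

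Other genes were set side by side in the copper libraries of dCcs1 and H3H113N-dCcs1. They had 467 and 638 RPKM of HOM2, 395.5 and 419 of ARO8, 116 and 213 of HIS4, 197 and 340.5 of ASN1 and 451 and 646 of ASN2. For the remaining paralogs they had 408 and 843 RPKM of LEU4, 80.1 and 94.9 of LEU9, 510 and 672 of BAT1, 294 and 217 of BAT2, 926 and 472 of GDH1 and 37.4 and 79.4 of GDH3. The H3H113N-dCcs1 library was the higher for each of these genes but BAT2 and GDH1.

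**Figure D4:**
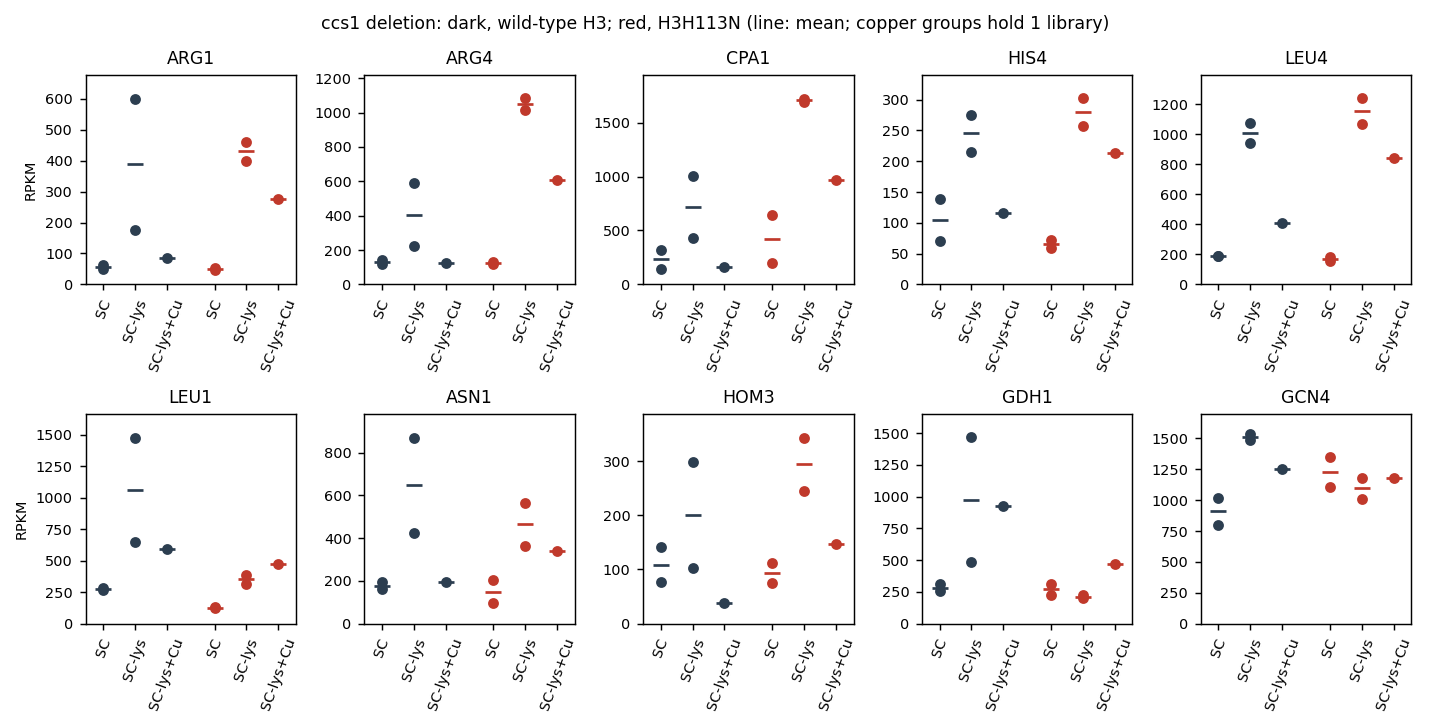
RPKM (linear axes from 0, 1 panel a gene) of 10 genes in the dCcs1 and H3H113N-dCcs1 libraries in SC, SC-lys and SC-lys with copper, 1 point a library, with group means as lines. LEU4 goes from 186 and 187 RPKM in SC to 1071 and 942 in SC-lys and 408 with copper in dCcs1, and from 185 and 158 to 1239 and 1068 and to 843 in H3H113N-dCcs1.

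Members also differed between media in WT. Between YPEG and SC, both made with NeoPrep, 3 members were called higher and 6 lower in YPEG, where 11.5% of all ORFs were called, 6.75% higher and 4.72% lower. HIS4 had 21.0 and 17.4 RPKM in YPEG and 108, 79.0 and 215 in SC, and fell by 3.00 (SE 0.44, edgeR adjusted p 0.000206). CPA1 had 1405 and 988 RPKM in YPEG and 154, 264 and 88.0 in SC, and rose by 2.63 (SE 0.57, edgeR adjusted p 0.00537). For both genes all YPEG libraries lay outside the SC range, and both calls held without any 1 of the 5 libraries. SER3 fell by 2.90 (SE 0.67, edgeR adjusted p 0.00803) in YPEG, and by 1.56 without WT-SC replicate 3, its highest library. HIS1, the first enzyme of histidine synthesis, fell by 1.72, SER2 by 1.48, ARO7, the chorismate mutase, by 1.39 and HOM6, the homoserine dehydrogenase, by 0.82, and LEU4 rose by 0.89. GCN4 had 961 to 1159 RPKM in SC and 2290 and 2060 in YPEG, a rise of 0.82 (SE 0.21, edgeR adjusted p 0.0153). SER3 was not called without either YPEG library, and the other 6 calls were each lost without at least 1 library. Without 1 library, 4 (WT-YPEG replicate 2) to 18 members (WT-SC replicate 3) were called, and summed stress genes were 8283 and 6533 RPKM in YPEG against 1042, 517 and 4906 in SC. With library totals only, the share of called ORFs that was higher went from 58.9% to 77.2%.

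Between SC and YPD, 8 members were called lower in SC and 0 higher, where 8.37% of all ORFs were called, 3.72% higher and 4.66% lower. ASN1 had 533 and 602 RPKM in YPD and 133, 125 and 183 in SC, and fell by 2.31 (SE 0.38, edgeR adjusted p 0.00187), a call that held without any 1 of the 5 libraries. ARO4 had 478 and 516 RPKM in YPD and 273, 270 and 217 in SC, and fell by 1.33 (SE 0.26, edgeR adjusted p 0.00446). Neither gene overlapped between the media. HIS1 fell by 1.26, ARO2 by 0.98, ARO8 by 0.92, ASN2 by 0.91, SER33 by 0.80 and SER1 by 0.73, calls that were each, with that of ARO4, lost without at least 1 library. GCN4 was at −0.27 (edgeR adjusted p 0.413). The kit differed with the medium here. With library totals only, the median of all ORFs rose to 0.41 and the members called became 3 higher and 3 lower, and the share of called ORFs that was higher went from 44.4% to 84.8%. The count of members ranged from 1 without WT-YPD replicate 2 to 15 without WT-SC replicate 1.

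**Figure D5:**
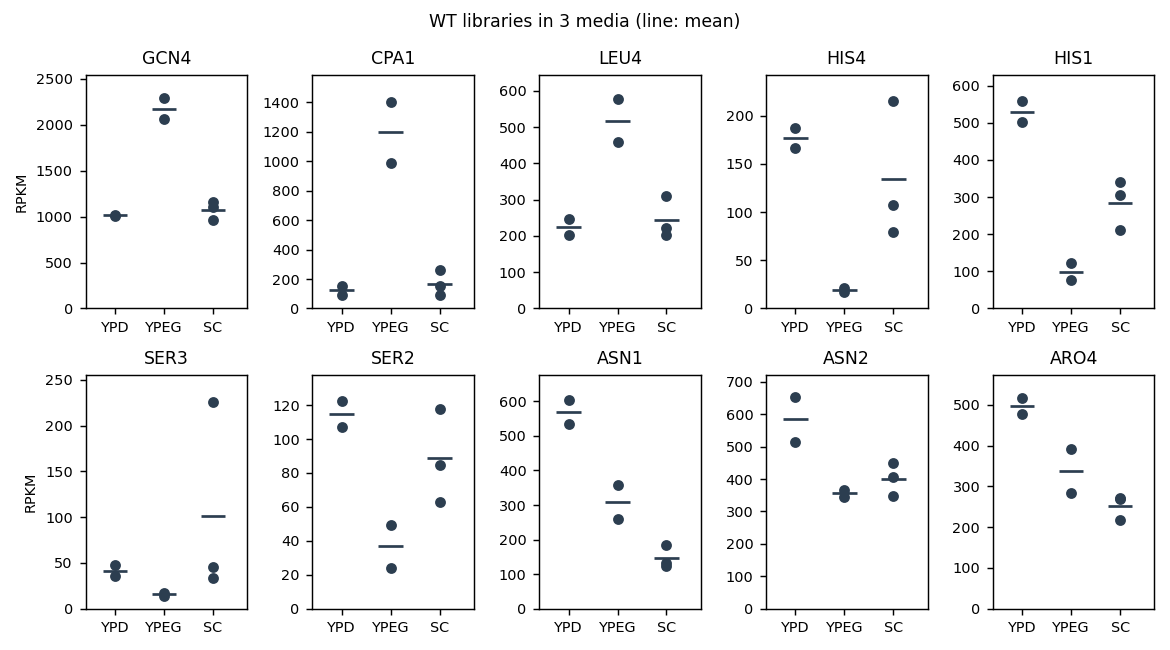
RPKM (linear axes from 0, 1 panel a gene) of 10 genes in the WT libraries in YPD, YPEG and SC, 1 point a library, with group means as lines. HIS4 is lowest in YPEG (21.0 and 17.4), CPA1 highest in YPEG (1405 and 988), and ASN1 lowest in SC (125 to 183).

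Genes of the same pathways outside the 51 were read from lists of 17 other synthesis enzymes, 16 genes of GCN4 control, 12 other regulators and 12 amino acid permeases. Without lysine, 5 of the 17 enzymes were called higher and 0 lower in each dCcs1 strain. Of all ORFs, 2.91% were called higher and 3.12% lower in dCcs1, and 5.63% and 7.98% in H3H113N-dCcs1. Those called higher included ARO9, ARG7 and ARG5,6 in both, AAT2 in dCcs1 and ARG2 in H3H113N-dCcs1. ARG7, of ornithine synthesis, rose by 2.36 in dCcs1 (SE 0.33, edgeR adjusted p 0.000450) and in H3H113N-dCcs1 by 3.07 (SE 0.34, edgeR adjusted p 2.27e-05). PCL5, a cyclin gene that Gcn4 activates and whose product directs Gcn4 breakdown, rose by 2.63 in dCcs1 (SE 0.44, edgeR adjusted p 0.00216) and in H3H113N-dCcs1 by 1.55 (SE 0.43, edgeR adjusted p 0.0210). It was the 1 of the 16 genes of GCN4 control called higher in either strain. Of these 16, GCN3 and SUI2 were called lower in H3H113N-dCcs1, where 7.98% of all ORFs were called lower.

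With H3H113N, ARO9, an aromatic aminotransferase that acts mainly in breakdown, rose by 2.71 (SE 0.52, edgeR adjusted p 0.0134) in SC and by 2.79 (SE 0.60, edgeR adjusted p 0.0275) with dCcs1 in SC. In SC, ARO80, the activator of ARO9, rose too (1.15, SE 0.28, edgeR adjusted p 0.0441). In the average, where 18.5% of all ORFs were called higher and 15.2% lower, ARO9 and TYR1 of the 17 enzymes were called higher and 4 lower, and of the 16 genes of GCN4 control 0 were called higher and 4 lower: GCN1 (−0.31), GCN20 (−0.55), GCD7 (−0.39) and SUI2 (−0.51). GCN1 and GCN20 act with the kinase Gcn2 that starts general control, and GCD7 and SUI2 encode subunits of translation initiation factors in that control. Of the 12 permeases, 1 was called higher in the average and 2 lower. The 4 MATalpha marker genes were all called higher in the average, and their part in the values of the members was not tested.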

How the data were processed

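Poly(A)+ RNA of 28 libraries was read as single-end 50-base reads, per the labels' protocols, which also say that strand was not used. Alignment used TopHat2 2.0.9 and the R64 (sacCer3) build, per the submitters' processing notes; the counting tool is not given in the sources used here. The deposited table holds raw read counts for 6692 ORFs and RPKM values that the authors computed from them, and recomputing RPKM from the counts and ORF lengths gave a largest relative difference of 3.8e-09. Of the ORF identifiers, 684 are not in the R64 annotation used here. Total counts per library were 1168159 to 6738018, and the members had a median of 855 reads and at least 3 in a library.

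From the counts, edgeR 4.0.16 (R 4.3.3) fitted 1 mean per group with its quasi-likelihood test over 26 libraries of the 12 replicated groups, with TMM scaling, ORFs of mean RPKM of at least 1 (6592) and Benjamini-Hochberg adjustment over all tested ORFs within each comparison. A call is an adjusted p under 0.05, and SEs were derived from the log2 fold change and the test's F statistic. The fit had 14 residual degrees of freedom and a common biological coefficient of variation of 29.5%. The average effect is the mean of the 6 H3H113N contrasts. Copper, with 1 library a strain, was described by log2 CPM differences past 2-fold. Log2 CPM values, also used for the chromosome shifts, had a prior count of 2. The script was tested on simulated data.

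The members, gene lists and tests were chosen with earlier results of these data known. By rule, all members called in a comparison are named where 12 or fewer were called, and otherwise the 6 largest rises and falls, GCN4 is given throughout, and every library is given for GCN4, the 8 members called most often and the paralog pairs. The rest were named after their values were seen. 1 gene of the lists outside the 51 is not reported here. Alternatives were other scalings, other filters on low values, chromosome centring, a replicate block, limma 3.58.1 on log2(RPKM + 1), DESeq2 1.42.0, fits on only the groups compared, and leaving out each library. Same-numbered WT and H3H113N libraries in SC deviated together (r 0.43 to 0.76 over 3 pairs), a pairing taken from the data, since the labels give only a number. Promoter sequences and motif positions were read with Biopython 1.88 from the RefSeq R64 genome.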

Additional observations from a re-analysis of the deposited data

How the results depend on the processing

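For single named members, and leaving aside the omission of libraries, 485 alternative values kept their direction and side of the threshold, 64 no longer passed, 7 newly passed and 5 changed sign. With 1 library left out, 373 kept theirs and 104 did not. For the numbers of members called, chromosome centring gave 0 in YPD, 0 in SC and 0 with dCtr1. Library totals only gave 2 in SC, 4 in SC-lys and 23 past 2-fold with copper in dCcs1. Fitting only the groups compared, which leaves few libraries, gave 0 in YPD, 3 in YPEG, 0 in SC, 0 in SC-lys, 0 and 9 without lysine in dCcs1 and H3H113N-dCcs1, 0 for YPEG against SC and 0 for SC against YPD, and was not run for the average. DESeq2 gave 3 in YPD, 2 in YPEG, 3 in SC, 4 with dCtr1, 2 with dCcs1 in SC, 12 in SC-lys and 21 without lysine in dCcs1. Limma gave 3 in SC, 4 in SC-lys and 5 for SC against YPD. A 3-fold limit for copper left 3 in dCcs1 and 0 in H3H113N-dCcs1.

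The replicate block gave 2 in SC (also 2 with those groups alone), 2 with dCtr1, 3 with dCcs1 in SC, 16 in SC-lys, 17 for YPEG against SC and 20 for SC against YPD, and it moved no other count by over 1.5 times. The labels give only a number in every setting. Between H3H113N and its parent, same-numbered pairs of 2 had r of 0.65 in YPD, 0.12 in YPEG and 0.22 with dCtr1. With dCcs1, r was 0.49 in SC and 0.56 in SC-lys. In groups of 2, crossed pairs have the same r with the sign reversed. The crossed pairing of WT and dCtr1 in YPD (r −0.47), chosen after seeing the data, gave 0. Likewise chosen later, the average had 23 calls without SC-lys and 21 without chromosome V members.

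GCN4 changed sign when centred, to −0.18 in YPEG, −0.48 with dCtr1 and −0.18 in the average, and for SC against YPD to 0.0851 with library totals and 0.0805 with limma. The cause was not tested in any of these. Leaving out 1 library gave 0 to 1 calls in SC, 0 to 3 in SC-lys, 20 to 26 in the average, 1 to 9 and 6 to 15 without lysine in dCcs1 and H3H113N-dCcs1, 4 to 18 for YPEG against SC, 1 to 15 for SC against YPD, 4 to 22 and 2 to 2 for copper, and 0 to 0 in the other comparisons. With 2 libraries in most groups, calls of single settings rest on few libraries.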
